A study of Mus musculus with 40 samples.

Results

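The genes of the Lin28, Igf2bp and Hmga families and Trim71 were followed through retinoic acid (RA) treatment of mouse embryonic stem cells with and without a mutation of GLP. They are Lin28a, Lin28b, Igf2bp1, Igf2bp2, Igf2bp3, Hmga1, Hmga2 and Trim71, chosen by name. All 8 were listed by symbol in each RNA-seq table, out of 23228 symbols common to the tables, and all 8 were among the 13198 genes tested. The study compared homozygous GLP 3A cells with wild-type cells, and asks what GLP contributes to the propagation of histone modification. GLP, the product of Ehmt1, methylates lysine 9 of histone H3. The 4 groups were GLP 3A cells with RA, wild-type cells with RA, untreated GLP 3A cells and untreated wild-type cells, each with 2 libraries, 8 in all. All carried the strain background C57BL/6 (mixed); the targeting was done in R1 embryonic stem cells, and the labels do not say how many clones or lines stand behind the RNA libraries. Cells were grown on feeders with serum and LIF, a cytokine that sustains self-renewal, and then without feeders in 2i medium for 2 passages. RA was all-trans retinoic acid at 1 uM, given as LIF was taken away, so that an effect of RA and one of LIF withdrawal cannot be told apart; the labels do not give the length of treatment. The series has 40 samples; its 32 ChIP and input libraries are not analysed here. Whether the 2 replicates of a group were independent cultures is not stated, and p-values then reflect only how far these libraries differ from each other, which may be technical.

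These genes belong to a circuit known from development. Lin28a and Lin28b encode RNA-binding proteins that block the maturation of let-7 microRNAs, and mature let-7 in turn represses Lin28a, Lin28b, Hmga2, Igf2bp1, Igf2bp2, Igf2bp3 and Trim71 through their messenger RNAs. Igf2bp1, Igf2bp2 and Igf2bp3 encode proteins that bind and stabilise messenger RNAs in embryonic cells, Hmga1 and Hmga2 encode small chromatin proteins with AT-hooks, and Trim71, the mouse counterpart of lin-41 of worms, encodes a repressor of messenger RNAs and ubiquitin ligase. In embryonic stem cells let-7 is held low, and it accumulates as cells differentiate.

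The tables give RPKM, reads scaled to gene length and to the mapped reads of the library, with no read counts. Relative depth, taken from the steps between low values, lay between 0.962 and 1.24 in replicate 1 libraries and between 0.437 and 0.565 in replicate 2 libraries, relative to untreated wild-type replicate 1, so replicate number and depth cannot be told apart. These depths are estimates. The best depth matched 16.4% to 28.5% of the ratios of low values, against a median of 3.8% to 5.5% over the depths tried. Ehmt1 stood at 13.0 and 13.9 RPKM in GLP 3A cells with RA and 24.4 and 23.5 in wild-type cells with RA, and at 14.1 and 14.3 RPKM in untreated GLP 3A cells and 18.4 and 17.7 in untreated wild-type cells; the tables hold no sequence with which to check the mutation. The summed RPKM of 10 core pluripotency genes ran from 91.9 to 132.4 in GLP 3A cells with RA and from 73.9 to 91.8 in wild-type cells with RA, against 2858 to 2966 in untreated GLP 3A cells and 3258 to 3263 in untreated wild-type cells. With RA, 10 of 10 fell in GLP 3A cells and 10 of 10 in wild-type cells. Summed fibroblast markers lay between 89.3 and 143.5 RPKM in the 4 RA libraries and between 5.11 and 6.79 in the 4 untreated ones, where Lum was at 0 in all 4. Summed extraembryonic endoderm markers were 149.7 and 74.3 RPKM in GLP 3A cells with RA and 404.1 and 109.3 in wild-type cells with RA, against 7.80 to 10.9 in the untreated libraries, so wild-type RA replicate 1 stood apart; Afp was at 0 in GLP 3A RA replicate 2 and both untreated wild-type libraries. Summed trophoblast markers were 1515 and 913.9 RPKM in GLP 3A cells with RA and 785.1 and 726.7 in wild-type cells with RA, against 64.3 to 107.4 in the untreated libraries. Most of this sum with RA came from the keratin genes Krt8 (749.6 and 432.5 RPKM in GLP 3A cells) and Krt18 (657.9 and 402.5). Of 8 trophoblast markers tested, 5 rose with RA in each genotype and 3, Ascl2, Eomes and Tfap2c, fell. Summed neural progenitor markers lay between 65.0 and 91.6 RPKM in all 8 libraries, a sum that hides changes in both directions. Of 8 tested, 6 rose with RA in wild-type cells and 5 in GLP 3A cells, beside 33.7% and 32.3% of all genes tested. Olig2 and Tubb3 fell in both genotypes. In wild-type cells Nes went from 1.30 and 1.08 RPKM untreated to 28.1 and 39.2 with RA, and Olig2 from 53.2 and 54.4 to 0.108 and 0.036. The part of these other cell types in the results below was not tested, and in bulk RNA fewer cells of a type and less RNA per cell cannot be told apart.

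The let-7 microRNAs that these genes share as a regulator have a common seed, the bases by which a microRNA finds its targets. Of 15 let-7 and lin-4 family genes in the tables, 14 had a mature sequence in RefSeq (GRCm38.p6). The 9 mature let-7 sequences from 11 genes held the seed GAGGUAG and the 2 mature miR-125 sequences from 3 genes, of the lin-4 family, the seed CCCUGAG. The sequences of let-7a, let-7i and let-7d, the last 2 being those whose genes had most values above 0, and of miR-125b are given 5′ to 3′ with the seed (bases 2 to 8) in capitals.
let-7a-5p (chr13:48538239-48538260, - strand): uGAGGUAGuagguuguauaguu
let-7i-5p (chr10:122985698-122985719, - strand): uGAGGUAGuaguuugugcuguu
let-7d-5p (chr13:48536078-48536099, - strand): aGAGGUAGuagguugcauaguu
miR-125b-5p (chr9:41581940-41581961, + strand): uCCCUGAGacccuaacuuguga
The values below are RPKM of the hairpin genes as the tables place them, in total RNA, and are no measure of mature let-7. Of the 120 values of the 15 genes, 98 were 0, and 6 genes were at 0 in every library. Mirlet7i was listed at 70.2 and 95.8 RPKM in GLP 3A cells with RA and at 44.3 and 36.4 in wild-type cells with RA. It was listed at 26.1 and 0 RPKM in untreated GLP 3A cells and at 0 in both untreated wild-type libraries. All 4 RA libraries were above all 4 untreated ones, and Mirlet7i was called higher with RA in GLP 3A cells (adjusted p = 0.036) and in wild-type cells (adjusted p = 0.0122). The GLP 3A call ended with a pseudocount of 0.1 (adjusted p = 0.0625), with no filter (0.0575), with only the 4 libraries compared (0.11) and in 6 of 8 fits with a library left out, where the difference ran from 1.61 to 6.38, and the wild-type call ended in 3 of 8 such fits. Mirlet7d, at 25.0 and 38.3 RPKM in GLP 3A cells with RA and 33.3 and 31.4 in wild-type cells with RA, was at 0 and 22.0 in untreated GLP 3A cells and 0 and 19.1 in untreated wild-type cells. Its differences with RA were not called (adjusted p = 0.211 in GLP 3A cells and 0.192 in wild-type cells), and none of the 5 genes of this family that were tested differed between genotypes at an adjusted p under 0.05.

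How the circuit changed as wild-type and GLP 3A cells left the stem cell state was the first comparison. Hmga2 and Lin28b rose with RA in both genotypes, Hmga1 and Trim71 fell in both, Igf2bp3 rose in wild-type cells, and Igf2bp1, Igf2bp2 and Lin28a fell in GLP 3A cells. With RA, 2 members rose and 5 fell in GLP 3A cells, beside 32.3% rising and 38.1% falling (70.4% in all) of the genes tested. In wild-type cells 3 rose and 2 fell, beside 33.7% and 34.8% (68.5% in all). A call with RA is thus common among all genes. The median over all genes was -0.07 in GLP 3A cells and -0.03 in wild-type cells; differences throughout are in log2(RPKM + 1), with moderated standard errors from limma (n = 2 libraries per group) and p-values adjusted over all genes tested, and a call is an adjusted p under 0.05.

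**Figure D1:**
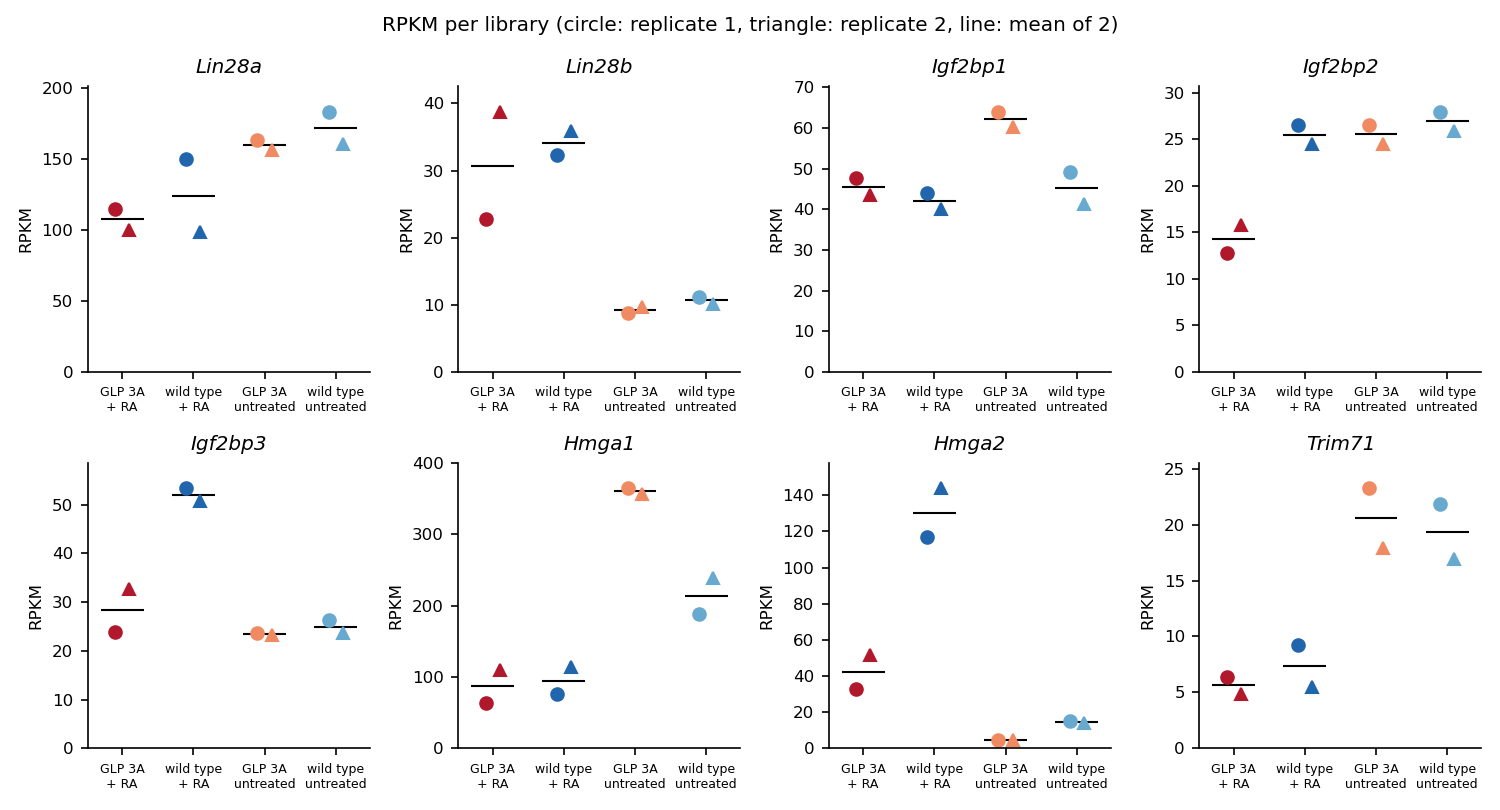
RPKM (vertical axes, from 0) of the 8 members in each library; circles are replicate 1, triangles replicate 2 and lines the mean of 2 libraries. Hmga2 is highest in wild-type cells with RA (117 and 144 RPKM) and lowest in untreated GLP 3A cells (4.78 and 4.36), while Hmga1 and Trim71 are lower in all 4 RA libraries than in any untreated one.

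Hmga2 (chr10:119798330-119913991 in mm9), whose protein bends AT-rich DNA and marks proliferating embryonic cells, stood at 33.1 and 51.5 RPKM in GLP 3A cells with RA and at 117 and 144 RPKM in wild-type cells with RA. In untreated cells it stood at 4.78 and 4.36 RPKM in GLP 3A and 14.9 and 13.8 in wild type. No 2 of the 4 groups overlapped. It rose by 2.93 ± 0.21 in GLP 3A cells (SE, adjusted p = 6.1e-05) and by 3.09 ± 0.21 in wild-type cells (adjusted p = 4.9e-05). Among all genes listed, Hmga2 ranked at the 89.0 and 93.0 percentiles in GLP 3A cells with RA, against 63.6 and 62.6 in untreated GLP 3A cells, and at 97.0 and 97.5 in wild-type cells with RA, against 77.7 and 76.9 in untreated wild-type cells. Within replicate 1 alone the RA difference was 2.56 in GLP 3A cells and 2.89 in wild-type cells, and within replicate 2 alone 3.29 in GLP 3A cells and 3.30 in wild-type cells. The symbols 9230105E05Rik and Mir763 share the locus; 9230105E05Rik was at 0.076 RPKM or less in each library and Mir763 was at 0 in 7 of 8.

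Lin28b (chr10:45096424-45190007), the paralogue that blocks let-7 in many fetal cells, was listed at 22.8 and 38.7 RPKM in GLP 3A cells with RA and 32.3 and 35.9 in wild-type cells with RA. Untreated, it was listed at 8.83 and 9.65 RPKM in GLP 3A cells and 11.1 and 10.2 in wild-type cells. All RA libraries lay above all untreated ones, and the genotypes overlapped with RA. The difference was 1.59 ± 0.23 in each genotype (adjusted p = 9.95e-04 in GLP 3A cells and 0.00104 in wild-type cells), and the 2 RA responses differed by -0.0025 with a 95% interval from -0.78 to 0.77. Lin28a (chr4:133559244-133574731), the paralogue typical of pluripotent cells, had 115 and 100.1 RPKM in GLP 3A cells with RA and 149 and 98.1 in wild-type cells with RA. Untreated it had 163 and 156 RPKM in GLP 3A cells and 183 and 160.0 in wild-type cells. All RA libraries were below all untreated ones, and the gene ranked between the 96.2 and 97.7 percentiles of all genes listed in every library. It fell by 0.57 ± 0.20 in GLP 3A cells (adjusted p = 0.0372), a call that ended with no filter on low values (adjusted p = 0.0561), with quantile normalization (-0.08, adjusted p = 0.779) and in 6 of 8 fits that left a library out. In wild-type cells the difference was -0.49 ± 0.20 (adjusted p = 0.0613), not called. Without wild-type RA replicate 1 the difference was -0.80, in a fit that leaves 1 library in that group. That library holds the high extraembryonic endoderm markers and is also the deeper of its pair (relative depth 1.21 against 0.565). The part of either in the Lin28a difference was not tested. As a ratio of RPKM, Lin28a to Lin28b was 5.04 and 2.58 in GLP 3A cells with RA and 4.63 and 2.73 in wild-type cells with RA, against 18.4 and 16.2 in untreated GLP 3A cells and 16.4 and 15.7 in untreated wild-type cells.

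Igf2bp3 (chr6:49035216-49164953), an oncofetal member of the Igf2bp family, had 23.8 and 32.7 RPKM in GLP 3A cells with RA and 53.3 and 50.8 in wild-type cells with RA. In untreated cells it had 23.6 and 23.3 RPKM in GLP 3A and 26.2 and 23.6 in wild type. The wild-type RA libraries stood above the other 6, and the GLP 3A RA libraries overlapped the untreated wild-type ones. With RA Igf2bp3 rose by 1.04 ± 0.14 in wild-type cells (adjusted p = 9.22e-04), and in GLP 3A cells the difference was 0.24 ± 0.14 (adjusted p = 0.176), called with quantile normalization (adjusted p = 0.0347) and without GLP 3A RA replicate 1 (adjusted p = 0.00583).

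The 3 members that rose with RA in wild-type cells, Hmga2, Lin28b and Igf2bp3, and Hmga1, which fell, are shown by the 250 bases before their start sites (RefSeq, GRCm38.p6, 5′ to 3′ on the gene's strand), to let their makeup be compared. Capitals mark the E-box CACGTG, the octamer ATTTGCAT and the GC box GGGCGG, searched on both strands.
Hmga2 (chr10:120476470-120476719, - strand): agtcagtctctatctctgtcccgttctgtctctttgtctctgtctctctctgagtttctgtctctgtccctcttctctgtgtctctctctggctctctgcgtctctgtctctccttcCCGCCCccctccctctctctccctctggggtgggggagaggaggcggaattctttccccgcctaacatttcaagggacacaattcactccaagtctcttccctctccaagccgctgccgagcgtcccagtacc
Lin28b (chr10:45470202-45470451, - strand): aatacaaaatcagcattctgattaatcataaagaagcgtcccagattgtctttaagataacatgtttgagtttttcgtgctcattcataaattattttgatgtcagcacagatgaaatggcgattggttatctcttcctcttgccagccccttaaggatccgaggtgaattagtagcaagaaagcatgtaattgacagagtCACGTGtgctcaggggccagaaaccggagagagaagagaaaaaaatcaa
Igf2bp3 (chr6:49214955-49215204, - strand): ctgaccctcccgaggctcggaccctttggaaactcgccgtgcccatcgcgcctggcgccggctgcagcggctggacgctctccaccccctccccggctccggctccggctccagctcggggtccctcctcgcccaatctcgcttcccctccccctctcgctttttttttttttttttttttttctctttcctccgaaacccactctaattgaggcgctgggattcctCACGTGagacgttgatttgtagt
Hmga1 (chr17:27556324-27556573, + strand): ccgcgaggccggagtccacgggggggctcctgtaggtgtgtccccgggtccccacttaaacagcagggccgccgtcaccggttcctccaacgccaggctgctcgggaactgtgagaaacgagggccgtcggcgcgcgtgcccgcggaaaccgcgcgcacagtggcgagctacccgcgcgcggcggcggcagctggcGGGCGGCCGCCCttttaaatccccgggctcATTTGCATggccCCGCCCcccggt
Counted over the 300 bases from 250 before to 50 after the start, Igf2bp3 held the E-box at 2 places, 1 on each side of the start, and Lin28b held it once, at base -49 counted from the start. E-boxes occurred in 7.17% of 32544 such promoters. Hmga1 held 1 octamer, at -24 in the first of its 2 listed windows; 1.75% of promoters held one. Hmga1 had 4 GC boxes, Igf2bp2 2, Hmga2, Lin28a and Trim71 1 each and Lin28b and Igf2bp3 0, and 35.9% of promoters held one or more. Neither AGGTCA, the core letters of retinoid receptor motifs (in 16.2% of promoters), nor TATAAA (in 13.6%) was found in the 7 members with an entry. The Hmga2 window was 69.0% pyrimidine, above 99.6% of all promoters, Igf2bp3 was 65.0% pyrimidine and above 98.9%, and Lin28b, at 39.0% GC, lay below the median of 53.0%. These matches describe letters and are not shown to be sites.

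Hmga1 (chr17:27693518-27700617), the form of HMGA most abundant in stem cells, was listed at 64.2 and 110.3 RPKM in GLP 3A cells with RA and 75.9 and 114 in wild-type cells with RA. Untreated, it was listed at 364 and 357 RPKM in GLP 3A cells and 188 and 239 in wild-type cells. The RA libraries were all below the untreated ones, and the genotypes overlapped with RA. Its value is uncertain, because no label says how reads that match more than 1 gene were divided. Hmga1 fell with RA, with a difference of -2.08 ± 0.29 in GLP 3A cells (adjusted p = 9.49e-04) and -1.18 ± 0.29 in wild-type cells (adjusted p = 0.0115). The wild-type call of Hmga1 ended without wild-type RA replicate 1 (adjusted p = 0.063) or untreated wild-type replicate 2 (adjusted p = 0.0682). As a ratio of RPKM, Hmga1 to Hmga2 was 1.94 and 2.14 in GLP 3A cells with RA and 0.648 and 0.789 in wild-type cells with RA, against 76.1 and 81.7 in untreated GLP 3A cells and 12.6 and 17.4 in untreated wild-type cells. Hmga2 was thus above Hmga1 in the 2 wild-type RA libraries and below it in the other 6.

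Trim71 (chr9:114420390-114473487) stood at 6.39 and 4.88 RPKM in GLP 3A cells with RA and 9.25 and 5.47 in wild-type cells with RA. In untreated cells it stood at 23.2 and 17.9 RPKM in GLP 3A and 21.8 and 16.9 in wild type. The RA libraries lay below the untreated ones without overlap, and the genotypes overlapped in each state. It fell by 1.70 ± 0.26 in GLP 3A cells (adjusted p = 0.00137) and by 1.31 ± 0.26 in wild-type cells (adjusted p = 0.00445), and the difference of these responses was -0.39 ± 0.37 (adjusted p = 0.597).

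Igf2bp2 (chr16:22059081-22163372), known for binding metabolic messenger RNAs, had 12.8 and 15.8 RPKM in GLP 3A cells with RA and 26.6 and 24.5 in wild-type cells with RA. Untreated it had 26.6 and 24.5 RPKM in GLP 3A cells and 27.9 and 25.9 in wild-type cells. The 2 GLP 3A RA libraries stood below the other 6, which overlapped each other. It fell with RA by 0.80 ± 0.11 in GLP 3A cells (adjusted p = 9.07e-04), and in wild-type cells the difference was -0.08 ± 0.11 with a 95% interval from -0.35 to 0.19 (adjusted p = 0.576). Igf2bp1 (chr11:95818477-95867258), whose protein binds the Actb and Myc messenger RNAs, had 47.6 and 43.4 RPKM in GLP 3A cells with RA and 43.9 and 40.1 in wild-type cells with RA. Its untreated levels were 64.0 and 60.3 RPKM in GLP 3A cells and 49.1 and 41.3 in wild-type cells. The untreated GLP 3A libraries were the highest, and the other 3 groups overlapped. It fell with RA by 0.44 ± 0.10 in GLP 3A cells (adjusted p = 0.00886), and the wild-type difference was -0.10 ± 0.10 (adjusted p = 0.424). The GLP 3A call ended with quantile normalization (-0.07, adjusted p = 0.577) and without untreated GLP 3A replicate 1 (adjusted p = 0.0554). A microRNA gene, Mir3063, shares the Igf2bp1 locus. It was listed at 63.7 and 0 RPKM in GLP 3A cells with RA and at 0 in both wild-type RA libraries. Untreated, it was listed at 104.6 and 172 RPKM in GLP 3A cells and 304 and 72.8 in wild-type cells. No label says how shared reads were divided, and the Igf2bp1 values are uncertain to that extent.

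**Figure D2:**
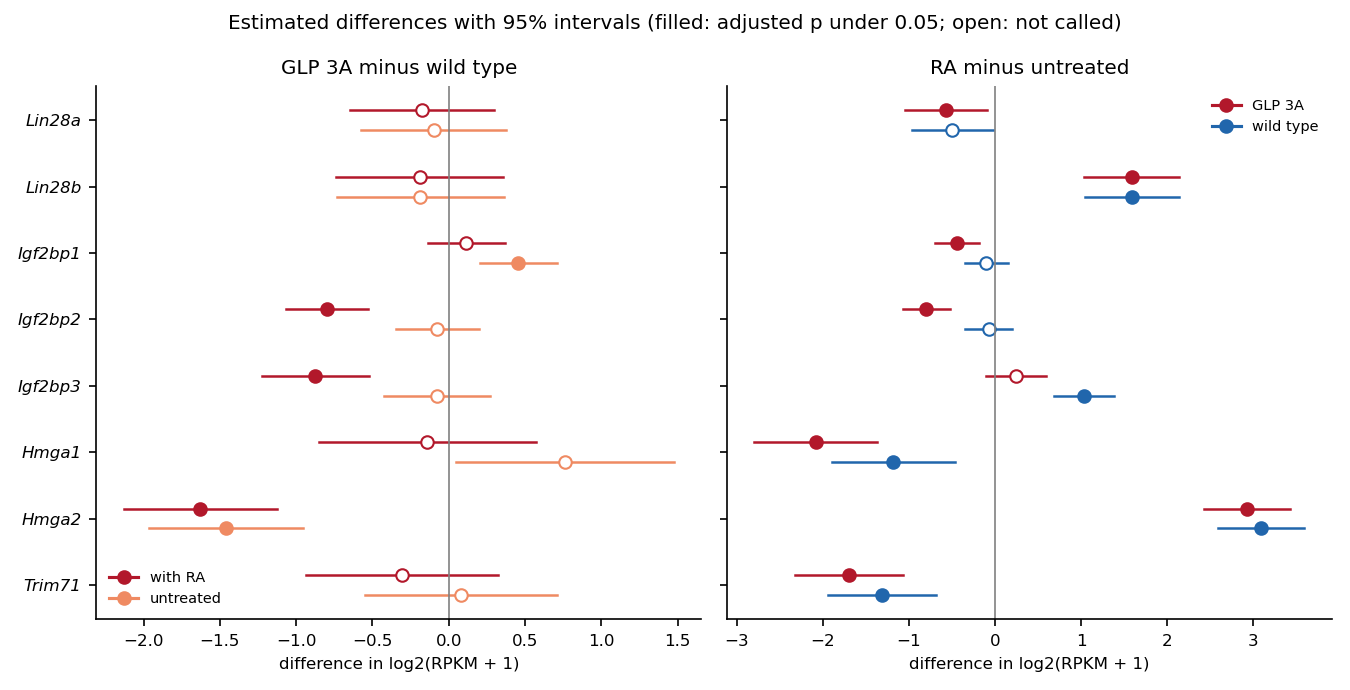
Differences in log2(RPKM + 1) for GLP 3A minus wild type (left) and RA minus untreated (right), with 95% intervals from limma; filled points have an adjusted p under 0.05. Hmga2 lies at -1.63 with RA and -1.46 untreated between genotypes, and at 2.93 and 3.09 between RA and untreated cells.

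Whether GLP 3A cells differed from wild-type cells before RA was the next comparison. Hmga2 was lower and Igf2bp1 higher in untreated GLP 3A cells, and the other 6 members were not called. These 2 of 8 stand beside 11.7% of all genes tested, 7.52% higher and 4.15% lower, with a median over all genes of 0.04. Hmga2 fell to 4.78 and 4.36 RPKM in GLP 3A cells, against 14.9 and 13.8 in wild-type cells, a difference of -1.46 ± 0.21 (adjusted p = 0.0109) that was -1.46 within replicate 1 alone and -1.46 within replicate 2 alone. The call held in the 9 other settings that kept all groups' libraries or the 4 compared, and ended when any one of the 4 untreated libraries was left out (adjusted p = 0.073 to 0.0859), with the difference between -1.51 and -1.40. Markers of cell state differed between untreated genotypes too. Zfp42, a gene of naive pluripotency, was the 1 of 10 core pluripotency genes called, at 66.4 and 63.1 RPKM in GLP 3A cells against 314 and 290.1 in wild-type cells (-2.20 ± 0.29). Of 8 neural progenitor markers tested, Nes (0.96 ± 0.15) and Tubb3 (0.79 ± 0.07) were called higher in GLP 3A cells, with a list median of 0.06. Sox1 of that list went the other way and was not called (-0.74 ± 0.39, adjusted p = 0.28). Of 8 trophoblast markers tested, Krt18 (0.87 ± 0.21) was called higher, and 0 fibroblast or extraembryonic endoderm markers were called. The part of these markers in the Hmga2 and Igf2bp1 differences was not tested. None of the 4 nearest tested genes around Hmga2, Tmbim4, Llph, Msrb3 and Lemd3, was called between genotypes in either state. Over all genes tested, 11.7% were called untreated and 10.6% with RA, so a gene without a call is common. These neighbours lay 129204 to 446475 bases away. The largest of their differences was that of Tmbim4, 0.48 ± 0.15 untreated (adjusted p = 0.0893) and 0.52 ± 0.15 with RA (adjusted p = 0.0759).

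Igf2bp1 was at 64.0 and 60.3 RPKM in untreated GLP 3A cells against 49.1 and 41.3 in untreated wild-type cells, 0.45 ± 0.10 higher (adjusted p = 0.0423). That call ended with no filter (adjusted p = 0.0571), median-of-ratios scaling (0.0613), quantile normalization (0.113) and no intensity trend (0.0526), and in 6 of 8 fits with a library left out. Igf2bp1 lies on chromosome 11, where the median gene was 0.24 higher in GLP 3A cells, both untreated and with RA. Its neighbours on 1 side, Snf8, of the ESCRT-II sorting complex, and Ube2z, a ubiquitin-conjugating enzyme gene, were higher too, by 0.66 ± 0.10 (adjusted p = 0.0138) and 0.55 ± 0.11 (adjusted p = 0.0316) untreated. On the other side B4galnt2 (-0.12 ± 0.41 untreated, adjusted p = 0.908) and 4833417C18Rik (0.19 ± 0.11, adjusted p = 0.298) were not called in either state. Leaving out a library ended the Snf8 call in 4 of 8 fits and the Ube2z call in 6 of 8, and quantile normalization ended that of Ube2z (0.0776). The part of the chromosome in the Igf2bp1 difference was not tested; untreated, the medians of the chromosomes of the other members were between 0.03 and 0.05, and with RA between -0.04 and -0.0029.

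Among the members without a call before RA, Igf2bp2 differed by -0.07 (95% interval -0.34 to 0.20), Igf2bp3 by -0.08 (-0.43 to 0.27), Lin28a by -0.10 (-0.57 to 0.37), Lin28b by -0.19 (-0.73 to 0.36) and Trim71 by 0.08 (-0.55 to 0.71). Hmga1 differed by 0.76 ± 0.29 (0.05 to 1.48, adjusted p = 0.153), and called when only the 4 untreated libraries were fitted (adjusted p = 0.0248). Both untreated GLP 3A libraries of Hmga1 were above both wild-type ones.

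With RA, 3 members were lower in GLP 3A cells, Hmga2, Igf2bp2 and Igf2bp3, and 0 were higher. This compares with 10.6% of all genes tested being called, 5.31% lower and 5.3% higher, and a median over all genes of -0.01. Hmga2 differed by -1.63 ± 0.21 (adjusted p = 0.0125), Igf2bp3 by -0.87 ± 0.14 (adjusted p = 0.022) and Igf2bp2 by -0.80 ± 0.11 (adjusted p = 0.0154). Within replicate 1 alone the differences were -1.79, -1.13 and -0.99 in that order, and within replicate 2 alone -1.46, -0.62 and -0.60. All 3 calls ended when only the 4 RA libraries were fitted (adjusted p = 0.171 for Hmga2, 0.194 for Igf2bp3 and 0.176 for Igf2bp2), a setting in which 15 genes were called in all, and without wild-type RA replicate 2 (0.0586 for Hmga2 and 0.0531 for Igf2bp2). Without wild-type RA replicate 1 the Igf2bp2 call ended as well (0.0669), and Igf2bp3 kept its call in 2 of 8 such fits.

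In this comparison the other 5 were not called. Igf2bp1 differed by 0.11 (95% interval -0.14 to 0.37), Lin28a by -0.17 (-0.65 to 0.30), Lin28b by -0.19 (-0.74 to 0.36), Hmga1 by -0.14 (-0.85 to 0.57) and Trim71 by -0.30 (-0.93 to 0.33). Lin28b stood at 22.8 and 38.7 RPKM in the GLP 3A libraries, and without GLP 3A RA replicate 2 it was called lower (-0.56, adjusted p = 0.0259). Markers of other states differed between these genotypes too: of the 10 core pluripotency genes, Klf2, Nanog and Tdgf1 were called higher in GLP 3A cells, and of 9 extraembryonic endoderm markers tested, Pdgfra and Sox17 were called lower. Nanog stood at 13.1 and 6.30 RPKM in GLP 3A cells with RA against 1.51 and 0.814 in wild-type cells with RA. Pdgfra stood at 2.71 and 3.41 RPKM in GLP 3A cells with RA against 10.9 and 8.65 in wild-type cells with RA. Of 8 neural progenitor markers tested, Sox1 (-1.82 ± 0.39) and Pax3 (-1.38 ± 0.15) were lower and 0 were higher. Of 8 trophoblast markers tested, Krt7 (1.27 ± 0.17) and Tfap2c (1.06 ± 0.23) were higher and Gata3 (-0.67 ± 0.12) was lower, and of 8 fibroblast markers tested, Col1a1 (0.53 ± 0.11) was higher and Pdgfra, which that list shares, lower. The part of these markers in the Hmga2, Igf2bp2 and Igf2bp3 differences was not tested.

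The last comparison was whether RA acted differently in the genotypes, tested as the difference of the RA responses, GLP 3A minus wild type. None of the 8 members was called by limma, beside 1.8% of all genes tested (0.561% higher and 1.24% lower, median over all genes -0.06). Igf2bp2 differed by -0.72 ± 0.16 (95% interval -1.11 to -0.34, adjusted p = 0.0781) and Igf2bp3 by -0.79 ± 0.20 (-1.29 to -0.30, adjusted p = 0.101). With a library left out, the difference ran from -0.86 to -0.58 for Igf2bp2 and from -1.02 to -0.57 for Igf2bp3. Both were largest in size without GLP 3A RA replicate 2, a fit that leaves 1 library in that group. Neither was called in any of the 8 other settings that kept all libraries, which says nothing of the fits with a library left out. Hmga2, lower in GLP 3A cells in both states, differed in its response by -0.17 ± 0.29 (-0.88 to 0.54). For Hmga1 the value was -0.90 ± 0.42 (-1.91 to 0.10, adjusted p = 0.282).

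The makeup of the Igf2bp family was compared as shares of its summed RPKM. This sum was 84.3 and 92.0 in GLP 3A cells with RA and 124 and 115 in wild-type cells with RA, against 114 and 108 in untreated GLP 3A cells and 103 and 90.8 in untreated wild-type cells. Igf2bp3 made up 28.3% and 35.6% of the sum in GLP 3A cells with RA and 43.1% and 44.0% in wild-type cells with RA, and 20.7% and 21.6% in untreated GLP 3A cells and 25.4% and 25.9% in untreated wild-type cells. Igf2bp1 made up 56.5% and 47.2% in GLP 3A cells with RA and 35.5% and 34.8% in wild-type cells with RA, and 56.0% and 55.8% in untreated GLP 3A cells and 47.6% and 45.5% in untreated wild-type cells. With RA the wild-type cells thus had Igf2bp3 as the largest member, while Igf2bp1 was the largest in the other 6 libraries. These shares were computed as a description, and no test was run on them.

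**Figure D3:**
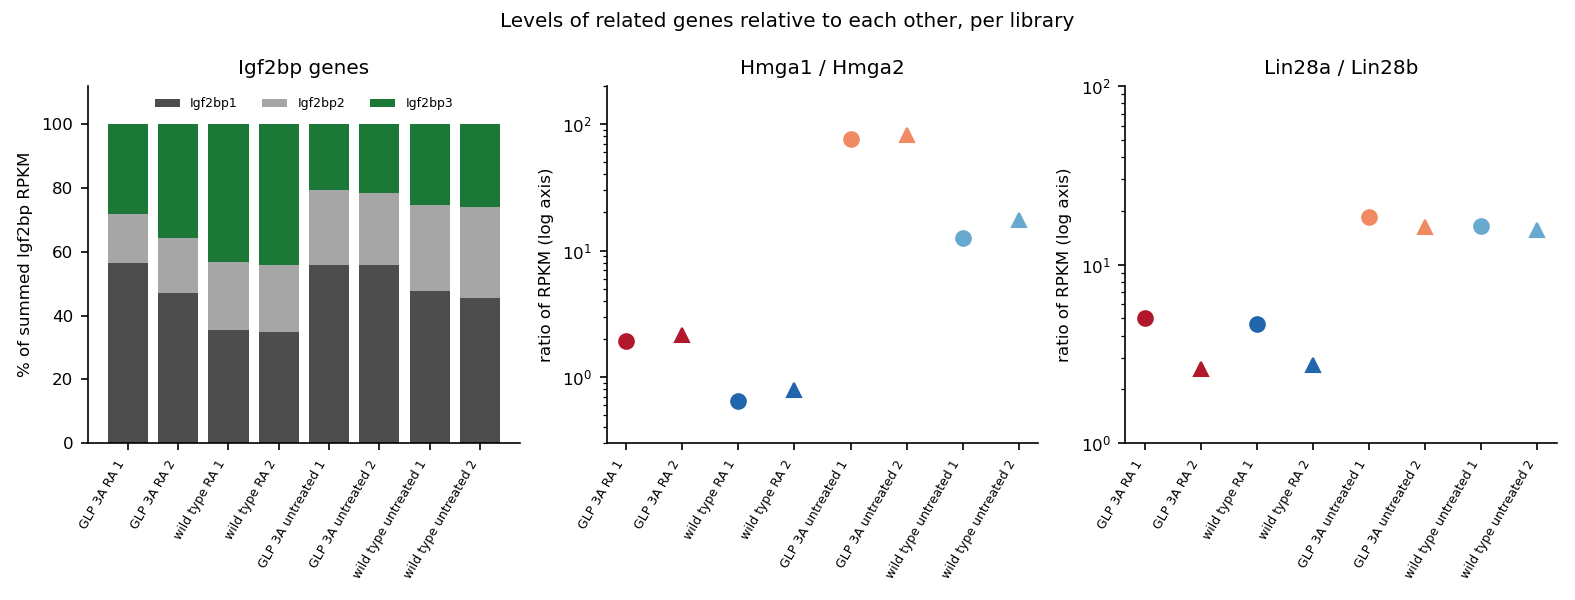
Left, the share of the summed Igf2bp RPKM held by each Igf2bp gene in each library; middle and right, ratios of RPKM on log axes, circles for replicate 1 and triangles for replicate 2. The Hmga1 to Hmga2 ratio is 0.648 to 2.14 in the RA libraries and 12.6 to 81.7 in the untreated ones, and is higher in GLP 3A than in wild-type cells in each state.

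Other messenger RNAs are known as let-7 targets. Of 26 such genes, 0 rose and 6 fell in GLP 3A relative to wild-type cells with RA, beside 5.3% higher and 5.31% lower of all genes tested, with a median of -0.24 beside -0.01 over all genes, and 22 of the 26 had a difference below 0. Without RA, 2 rose and 2 fell, beside 7.52% higher and 4.15% lower of all genes tested, with a median of 0.09 and 10 of 26 below 0. The share of all genes below 0 was not counted, so these counts of signs have no background beside them. Medians with RA were below 0 in other lists too, at -0.19 for other high-mobility-group genes and -0.16 for IGF2BP partners and clients, and above 0 for core pluripotency genes (0.99) and trophoblast markers (0.62). The 6 lower with RA were the MYC family genes Mycn (-1.03 ± 0.17) and Myc (-0.86 ± 0.19), the cyclin D1 gene Ccnd1 (-0.72 ± 0.13), the insulin receptor substrate gene Irs2 (-0.70 ± 0.12) and 2 others. All 4 of these calls ended with only the 4 RA libraries (adjusted p = 0.191 for Mycn, 0.232 for Myc, 0.209 for Ccnd1 and 0.196 for Irs2). With a library left out, Mycn, Ccnd1 and Irs2 kept theirs in 2 of 8 fits and Myc in 1 of 8, and Myc lost its call with no filter (0.0638). Irs2 stood at 21.5 and 21.0 RPKM in GLP 3A cells with RA and 39.6 and 31.2 in wild-type cells with RA. Ccnd2, the cyclin D2 gene, was not called at -0.87 ± 0.25 with RA (adjusted p = 0.0787) or -0.97 ± 0.25 untreated (adjusted p = 0.0556). Without RA the calls were Mycn (0.92 ± 0.17) and the kinase gene Map4k4 (0.49 ± 0.08), higher, and Cdk6 (-0.48 ± 0.10) and the activin receptor gene Acvr1b (-0.39 ± 0.08), lower. Of these, Mycn, Map4k4 and Acvr1b kept their calls in 4 of 8 fits with a library left out and Cdk6 in 2 of 8, and Cdk6 lost its call with no filter (0.0588) and quantile normalization (0.0534).

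**Figure D4:**
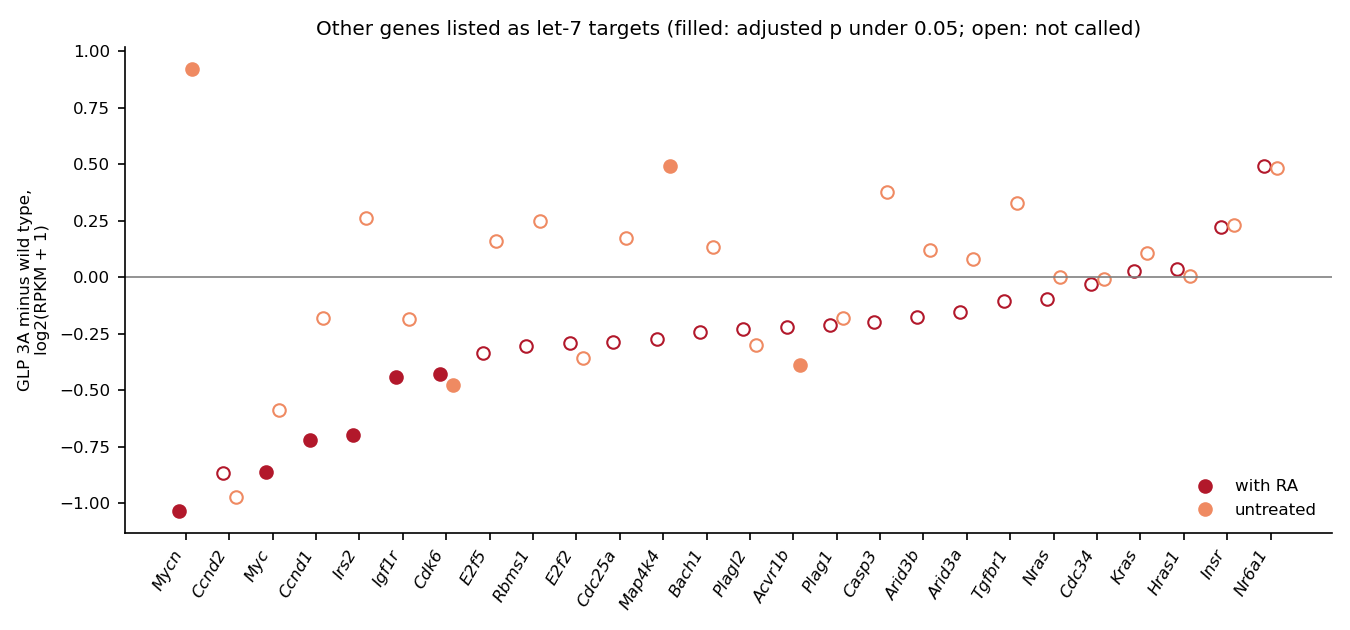
GLP 3A minus wild type in log2(RPKM + 1) for 26 other genes known as let-7 targets, ordered by the difference with RA; filled points have an adjusted p under 0.05. With RA 22 of 26 lie below 0, and untreated 10 of 26, and the share of all genes below 0 was not counted.

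In response to RA itself the let-7 targets went both ways. In GLP 3A cells 11 of 26 rose and 9 fell (median -0.05), beside 32.3% and 38.1% of all genes tested. In wild-type cells 13 rose and 9 fell (median 0.31), beside 33.7% and 34.8%. Rbms1, an RNA-binding protein gene, rose by 2.56 ± 0.10 in GLP 3A cells and 3.12 ± 0.10 in wild-type cells. Ccnd2 rose by 2.47 ± 0.25 in GLP 3A and 2.37 ± 0.25 in wild type, and Irs2 by 1.95 ± 0.12 in GLP 3A and 2.91 ± 0.12 in wild type. Mycn fell by 2.73 ± 0.17 in GLP 3A cells and by 0.77 ± 0.17 in wild-type cells.

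Among 15 genes of microRNA processing and let-7 turnover, 3 rose and 9 fell with RA in GLP 3A cells (median -0.33). That stands beside 32.3% rising and 38.1% falling of all genes tested. In wild-type cells 3 of the 15 rose and 7 fell (median -0.18), beside 33.7% and 34.8%. The same 3 rose in both, Prkra, a Dicer partner (1.34 ± 0.16 in GLP 3A and 1.59 ± 0.16 in wild type), Tnrc6a and Zcchc11, the uridylyl transferase that LIN28 recruits to let-7 precursors. Zcchc11 had 19.2 and 24.0 RPKM in GLP 3A cells with RA and 27.8 and 31.1 in wild-type cells with RA, against 13.7 and 13.8 in untreated GLP 3A cells and 13.8 and 13.3 in untreated wild-type cells. Those that fell in both include Xpo5, the exporter of microRNA precursors, and Eif2c2, the Argonaute 2 gene. Between genotypes, 1 rose and 1 fell of 15 untreated (median 0.07) and 0 rose and 1 fell with RA (median -0.08). Over all genes tested, 11.7% were called untreated and 10.6% with RA. Dis3l2, the nuclease that degrades uridylated let-7 precursors, was lower in GLP 3A cells by 0.54 ± 0.09 untreated (adjusted p = 0.0162) and by 0.44 ± 0.09 with RA (adjusted p = 0.0338); the calls held in 4 of 8 fits untreated and 1 of 8 with RA when a library was left out, and with only the 4 RA libraries the RA call ended (0.231). Its chromosome 1 had a median difference of -0.24 untreated and -0.31 with RA.

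Partners and clients of the IGF2BP proteins numbered 14, of which 3 rose and 7 fell with RA in each genotype (median -0.37 in GLP 3A and -0.19 in wild type). The shares over all genes tested were 32.3% and 38.1% in GLP 3A cells and 33.7% and 34.8% in wild-type cells. Igf2, whose messenger RNA gave the family its name, and H19 were among the 3 of the 14 that rose. Igf2 rose by 6.02 ± 0.09 in GLP 3A cells and 6.42 ± 0.09 in wild-type cells; both genes share their locus with other symbols and are uncertain to that extent. Between genotypes with RA, 1 rose and 4 fell (median -0.16), beside 5.3% and 5.31% of all genes tested. H19 was higher in GLP 3A cells, at 1019 and 828 RPKM in GLP 3A cells against 434 and 550.4 in wild-type cells, and the RNA-binding protein genes Syncrip (-0.39 ± 0.06) and Ybx1 (-0.35 ± 0.08) were lower with Pabpc1 and Myc. With a library left out, H19 kept its call in 2 of 8 fits and Syncrip, Ybx1 and Myc in 1 of 8 each. With only the 4 RA libraries H19 (adjusted p = 0.2), Syncrip (0.201) and Ybx1 (0.268) lost theirs, and Ybx1 also with no filter (0.0879), quantile normalization (0.099) and the replicate block (0.0545). Untreated, H19 alone of the 14 was called, 1.41 ± 0.16 higher (median of the 14 0.06), beside 11.7% of all genes tested.

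Of 9 other high-mobility-group genes, 5 rose and 3 fell with RA in GLP 3A cells (median 0.29), beside 32.3% and 38.1% of all genes tested. In wild-type cells 5 rose and 1 fell (median 0.44), beside 33.7% and 34.8%. Hmgn3, of the nucleosome-binding family, rose by 2.93 ± 0.20 in GLP 3A cells and 2.59 ± 0.20 in wild-type cells, and Hmgb3 by 1.66 ± 0.26 in GLP 3A cells and 2.47 ± 0.26 in wild-type cells. Between genotypes Hmgn5 was higher untreated (0.64 ± 0.09) and Hmgb2 lower with RA (-0.27 ± 0.06), 1 of 9 in each, with list medians of 0.17 untreated and -0.19 with RA. Over all genes tested, 11.7% were called untreated and 10.6% with RA. The Hmgb2 call (adjusted p = 0.0475) ended in 8 of 8 fits with a library left out and in 6 of 9 other settings (0.0507 to 0.268), the replicate block among them (0.0597), and that of Hmgn5 in 4 of 8 and 0 of 9.

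Of 8 other TRIM-NHL genes and known targets of TRIM71, 4 rose and 2 fell with RA in GLP 3A cells (median 0.25), beside 32.3% and 38.1% of all genes tested. In wild-type cells 5 rose and 1 fell (median 0.47), beside 33.7% and 34.8%. Cdkn1a, the p21 gene that TRIM71 represses in mouse stem cells, had 147 and 155 RPKM in GLP 3A cells with RA and 107 and 113 in wild-type cells with RA. Untreated it had 72.5 and 68.8 RPKM in GLP 3A cells and 83.0 and 83.2 in wild-type cells. It rose by 1.09 ± 0.07 in GLP 3A cells and 0.40 ± 0.07 in wild-type cells. With RA it was the only one of the 8 called between genotypes (0.46 ± 0.07, adjusted p = 0.0168, list median -0.05), beside 10.6% of all genes tested. Untreated, 0 of the 8 were called (list median -0.04), beside 11.7%. The Cdkn1a call between genotypes ended with only the 4 RA libraries (0.191) and in 5 of 8 fits with a library left out.

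Genes whose levels went most alike with each member were sought among all tested genes by Pearson's r of log2(RPKM + 1) over the 8 libraries, which share genotype, RA state and depth. For Hmga2 they were Cited2, a transcriptional coactivator (r = 0.997), Vash2 (0.996) and Grb10, an adaptor of insulin signalling (0.995). Cited2 had 53.7 and 64.5 RPKM in GLP 3A cells with RA and 87.3 and 96.3 in wild-type cells with RA. Nearest to Lin28b were Iglon5, Manea and Mum1l1 (0.996 to 0.997), to Trim71 Cdk20, Tmppe and Cct7, to Hmga1 Psma1, Hiat1 and Alkbh6, and to Igf2bp3 Eif4g3, Prr5 and Slc25a23. For Igf2bp2 they were Fam117b, Mycl1 and Kctd3, for Igf2bp1 Spnb3, Zfp652 and Zzz3, and for Lin28a Serpinb6c, Ppp1r15b and Gga2 (0.971 to 0.977).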

How the data were processed

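RNA-seq of 8 mouse embryonic stem cell libraries, 2 in each of 4 groups, was used. The authors deposited RPKM per gene; per the submitters' processing notes Bowtie 0.12.7, TopHat, SAMtools and Cufflinks were used with mm9, with no word on how ambiguous reads were divided. Symbols in all 8 tables were kept (23228), 12 being left out. The 13198 genes reaching 1 RPKM in 2 or more libraries were tested on log2(RPKM + 1), with a pseudocount of 1, which understates changes of low genes. limma 3.58.1 in R 4.3.3 fitted 4 group means with an intensity trend and Benjamini-Hochberg adjustment over all tested genes; the fit was tested on simulated data. Depth is known only in relative terms. The members and gene lists were chosen with earlier results of these data known. Naming in a list was limited, per comparison, to the 4 called and 2 uncalled genes of largest difference, with the 3 genes most alike to each member. Other genes named, among them neighbours and those of counts of 5 or fewer, were chosen after their values were seen. The closing section gives the other pseudocounts, filters, scalings and fits and the libraries left out. Sequences came from RefSeq tables (GRCm38.p6), coordinates of genes from the deposited tables (mm9). 1 further gene is not reported here.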

Additional observations from a re-analysis of the deposited data

Results flagged for a closer look

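The difference of RA responses, GLP 3A minus wild type (limma), was called for 2 of 26 let-7 targets. It was called for 1 of 8 TRIM-NHL genes and TRIM71 targets, and 1.8% of all genes tested were called. The other lists had 0 calls, among 5 let-7 and lin-4 family genes tested, 15 processing genes, 14 IGF2BP partners and clients and 9 other high-mobility-group genes. Mycn, which fell with RA in both genotypes, differed by -1.95 ± 0.23 (adjusted p = 0.0238). It stood at 11.5 and 16.5 RPKM in GLP 3A cells with RA and 31.5 and 27.2 in wild-type cells with RA, against 101.0 and 93.1 in untreated GLP 3A cells and 53.1 and 48.5 in untreated wild-type cells. Map4k4 differed by -0.76 ± 0.11 (adjusted p = 0.0381) and Cdkn1a by 0.69 ± 0.09 (adjusted p = 0.031). With a library left out, Mycn and Cdkn1a kept these calls in 2 of 8 fits and Map4k4 in 1 of 8, and Map4k4 lost its call with quantile normalization (adjusted p = 0.0536). Of the markers of cell state, Zfp42 (2.50), Pdgfra (-1.35), Pax3 (-1.42) and Gata3 (-1.16) were called in the same comparison. Zfp42 was 1 of 10 core pluripotency genes, Pax3 1 of 8 neural progenitor markers tested and Gata3 1 of 8 trophoblast markers tested. Pdgfra was 1 of 9 extraembryonic endoderm markers tested and 1 of 8 fibroblast markers tested.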

How the results depend on the processing

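Precision is limited by 2 libraries per group, and with no read counts no counting error can be given. Genes called between untreated genotypes numbered 1541, against 1011 with quantile normalization, 3450 with only the 4 libraries compared and 206 to 2298 leaving out 1 library; members called were 2, against 1 with no filter, median-of-ratios scaling, quantile normalization or no intensity trend, and 0 to 2 leaving out 1. With RA the counts were 1401, 15 with only those 4 libraries and 298 to 2431, and of members 3, 0 with only those 4 libraries and 0 to 4. For the difference of responses they were 238, 158 with a pseudocount of 0.1, 130 with quantile normalization and 11 to 1128, and of members 0 and 0 to 2. With the replicate block the members called were 2, 3, 6 in the wild-type RA response, 7 in that of GLP 3A and 0; among the members, Lin28a in wild-type cells was the call that changed (adjusted p = 0.0187). Deviations of same-numbered libraries correlated at 0.169 to 0.355, but 2 numbers cannot establish a pairing. Signs that turned belonged to differences that were not called, and the cause was not tested. With quantile normalization these were Igf2bp1 (0.10), Igf2bp2 (0.036) and Nras (0.14) in the wild-type RA response, and Lin28a (0.046) and Lin28b (0.047) in the difference of responses, where Lin28b was also 0.0075 and 0.0027 with pseudocounts of 0.1 and 0.5 and 0.014 with median-of-ratios scaling. Leaving out 1 library gave, untreated, Trim71 -0.10 to 0.26 (-0.09 without wild-type replicate 2) and Ehmt2 -0.16 to 0.0073; with RA, Lin28a -0.48 to 0.13, Lin28b -0.56 to 0.18, Hmga1 -0.53 to 0.25 (0.15 without wild-type RA replicate 2) and Trim71 -0.64 to 0.028. In the wild-type RA response it gave Igf2bp1 -0.22 to 0.022, Myc -0.018 to 0.35 and Nras -0.14 to 0.040. In the difference of responses it gave Lin28a -0.38 to 0.23, Lin28b -0.37 to 0.37 and Hmga2 -0.48 to 0.14.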
